A study of Mus musculus with 8 samples.

Results

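A set of 10 genes of fibroblast growth factor (FGF) signalling was followed through sorted skeletal progenitors of the mouse femur: the receptors Fgfr1, Fgfr2, Fgfr3 and Fgfr4, the receptor-like gene Fgfrl1, the ligands Fgf2 and Fgf18, and the feedback genes Spry1, Spry2 and Dusp6. They were chosen by gene name, and all 10 were found, each on 1 row, among the 55471 entries of the count table. Bulk RNA sequencing was done on cells sorted by fluorescence from neonatal pups of day 3 to 5, either skeletal stem cells (SSC) or bone cartilage stromal progenitors (BCSP), from wild-type (WT) or Tet1 knockout (KO) mice. The 4 groups (WT SSC, KO SSC, WT BCSP, KO BCSP) held 2 libraries each, numbered round 1 and round 2 in their titles, 8 in all. Every library, wild type included, carries the strain name B6;129S4-Tet1tm1.1Jae/J, and no other treatment is named. Separate animals, litters or pools per library, and the meaning of a round, are left unstated by the labels. The p-values below therefore measure only the spread between these samples, which may be technical.

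FGF ligands bind receptor tyrosine kinases together with heparan sulfate, and the activated receptor signals through RAS to the kinases ERK1 and ERK2. ERK activity switches on its own inhibitors: Sprouty proteins, which act on the route from receptor to RAS and RAF, and dual-specificity phosphatases such as DUSP6, which removes phosphate from ERK. In the growth plate, FGFR3 restrains the proliferation of chondrocytes, and activating mutations of its gene cause achondroplasia. FGF18 is a ligand of FGFR3 in the developing skeleton.

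Library totals ran from 104782544 to 168004119 counts. Values are counts per 1e6 counts (CPM) scaled for composition (TMM factors), and differences are log2 fold changes ± SE from edgeR's quasi-likelihood test, with p-values adjusted by Benjamini-Hochberg over the 22153 genes tested and a threshold of 0.05. The SE was computed as the absolute log2 fold change divided by the square root of the test's F statistic. Within each group below, the round 1 library is given first. The cells were rich in cartilage transcripts, with a summed level of 5 chondrocyte markers of 263600 to 350500 CPM in each library. Eng, whose product CD105 is commonly used to part BCSP from SSC, was counted at 2.53 to 3.89 CPM in SSC and 25.7 to 50.5 CPM in BCSP. Of the 5 sort marker genes (Itgav, Cd200, Eng, Thy1, Enpep), 1 had a higher mean in SSC. Cd200 overlapped, at 24.2 to 49.7 CPM in SSC and 28.6 to 67.2 in BCSP. Tet1 itself was counted at 15.6 and 19.6 CPM in WT SSC, 7.26 and 11.8 in KO SSC, 21.6 and 10.98 in WT BCSP and 10.8 and 11.97 in KO BCSP, with a log2 fold change of -0.70 ± 0.23 over both cell types and an edgeR adjusted p of 0.608, so the test did not separate the genotypes at Tet1. The WT BCSP library of round 2 stood apart in that its deviation from the mean profile ran with transcript length (Spearman -0.498 over 12636 genes), and the KO BCSP library of round 2 ran the other way (0.357), against -0.244 to 0.225 in the other 6.

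Compared per transcript length, as TPM (a length-scaled abundance summing to 1e6 per library, computed from the counts and exon lengths), Fgfrl1 had the highest mean level of the 10 genes, at 530 ± 28.1 TPM (SD, n = 8). Spry2 followed at 280 ± 83.6, Fgfr3 at 257 ± 62.3 and Fgfr1 at 185 ± 31.6. The ranges of Spry2 (172 to 429.5) and Fgfr3 (182 to 342.5) overlapped widely, and that of Fgfr1 (128 to 215.5) reached into both. Fgfr2 (64.5 ± 13.8) and Dusp6 (53.7 ± 14.3) formed the next pair and were not separated beyond their spread. Fgfr4 (25.2 ± 2.20), Fgf18 (17.9 ± 6.46) and Fgf2 (17.6 ± 6.68) overlapped as well. Spry1 was lowest, at 5.21 ± 1.38 TPM, and its highest library (7.98) lay below the lowest library of every other member.

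**Figure D1:**
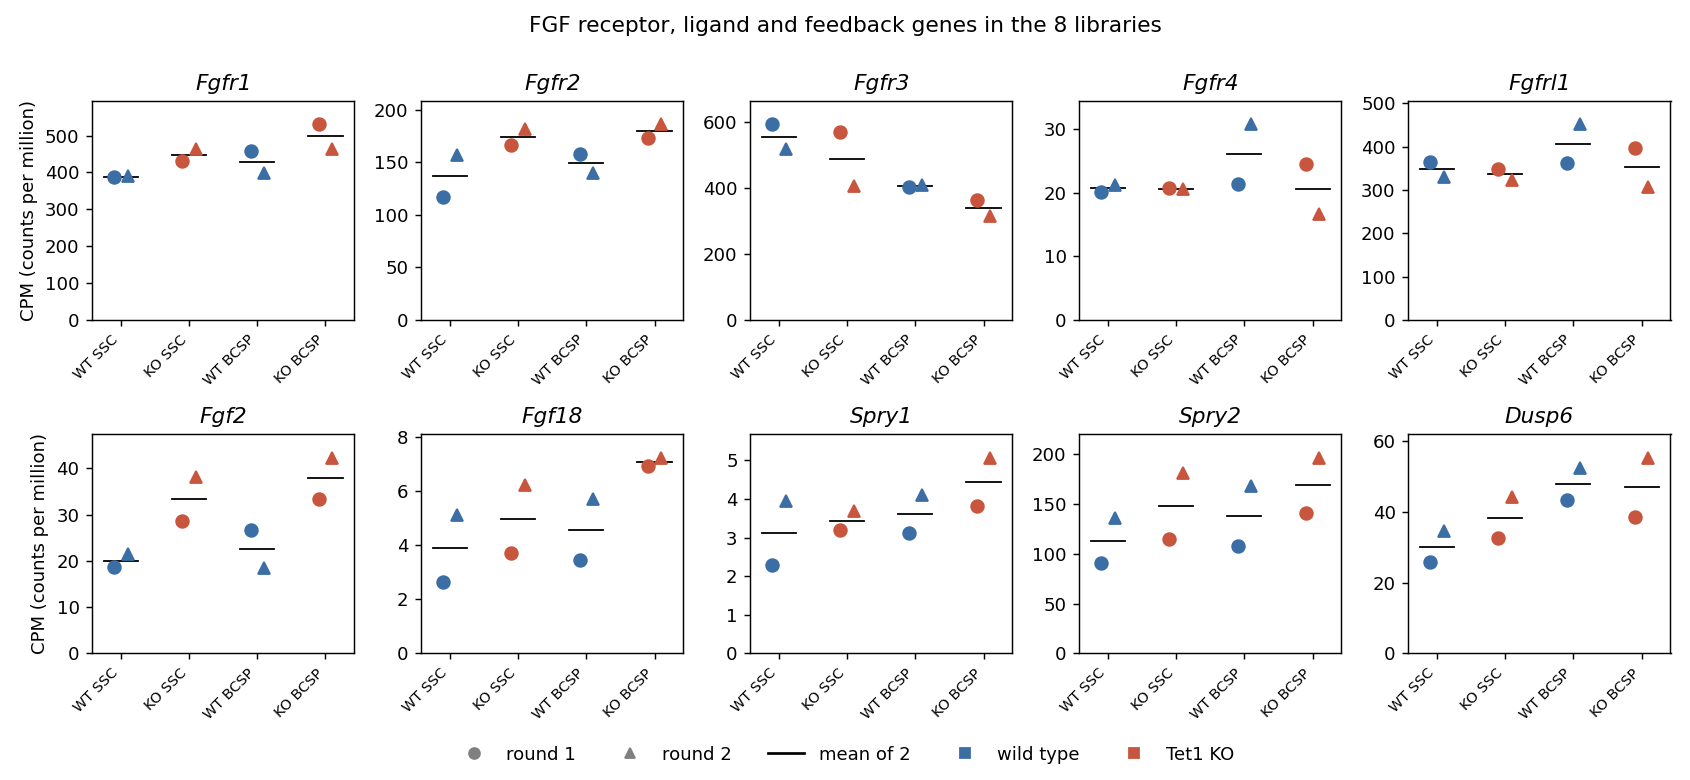
Level of each of the 10 genes (CPM, linear axis from 0, 1 panel per gene) in the 8 libraries, with points marking single libraries by group and round and lines the mean of the 2 libraries of a group. Fgf2 lay between 28.5 and 42.3 CPM in the 4 KO libraries and between 18.5 and 26.7 CPM in the 4 WT libraries. This separation was not counted over all genes.

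Among the receptors, Fgfr3 was read at 594 and 517 CPM in WT SSC, 570 and 405 in KO SSC, 402 and 408 in WT BCSP and 363 and 314 in KO BCSP. The 2 WT SSC libraries and the first KO SSC library were high, and the second KO SSC library lay inside the BCSP range. Fgfr1, the receptor of mesenchymal and perichondrial cells, was at 386.5 and 390.5 CPM in WT SSC, 431 and 465 in KO SSC, 457 and 398 in WT BCSP and 531 and 465 in KO BCSP. Its lowest values were in WT SSC, and its KO and WT ranges overlapped through WT BCSP. Fgfr2, which is active in osteoprogenitors, was at 117 and 157 CPM in WT SSC, 167 and 181 in KO SSC, 158 and 140 in WT BCSP and 173 and 186 in KO BCSP. All 4 KO libraries of Fgfr2 lay above all 4 WT libraries, by 166.8 against 158 CPM at the nearest pair. This separation was not counted over all genes.

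Fgfr4 was at 20.1 and 21.2 CPM in WT SSC, 20.7 and 20.6 in KO SSC, 21.3 and 30.8 in WT BCSP and 24.4 and 16.7 in KO BCSP. Its extremes were the BCSP libraries of round 2, the pair whose profiles ran with transcript length in opposite directions. Fgfrl1, which binds FGF but lacks the kinase domain of the other receptors, was at 365 and 331 CPM in WT SSC, 349 and 323 in KO SSC, 362 and 452 in WT BCSP and 398 and 308 in KO BCSP, with its extremes in the same 2 libraries. The part that transcript length has in these extremes was not tested gene by gene.

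The make-up of the receptor pool does not depend on how libraries are scaled to each other; the part of the length trend in it was not tested. Fgfr3 supplied 59.6% and 54.3% of the summed TPM of Fgfr1 to Fgfr4 in WT SSC, 54.9% and 44.6% in KO SSC, 45.4% and 47.7% in WT BCSP and 39.6% and 38.6% in KO BCSP. Fgfr1 supplied 28.1% and 29.8% in WT SSC, 30.02% and 37.1% in KO SSC, 37.4% and 33.7% in WT BCSP and 41.99% and 41.4% in KO BCSP. The Fgfr3 to Fgfr1 ratio was thus 2.12 and 1.83 in WT SSC and 0.942 and 0.931 in KO BCSP, the only 2 libraries of the 8 with more Fgfr1 than Fgfr3 per length. Values in between were 1.83 and 1.20 in KO SSC and 1.21 and 1.42 in WT BCSP. Fgfr2 held 8.15% to 15.9% and Fgfr4 4.02% to 7.27% of the pool. These shares are given as a description, without a test.

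**Figure D2:**
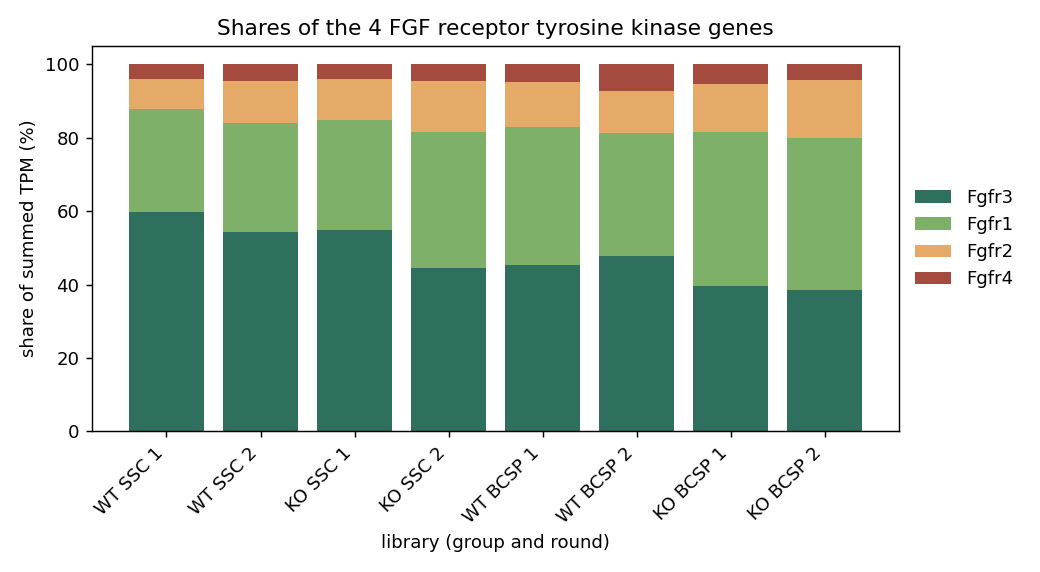
Share of each of the 4 kinase receptors in their summed TPM (percent, from 0 to 100) in the 8 libraries, 1 stacked bar per library. The Fgfr3 share ran from 38.6% in KO BCSP of round 2 to 59.6% in WT SSC of round 1.

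The proximal promoter of Fgfr3 is shown because this receptor had the largest difference in level between SSC and BCSP among the members. It is the stretch just upstream of the first annotated exon, from RefSeq's promoter table (GRCm38.p6, + strand, chr5:33721474-33721673), cut where an annotated exon begins. Capitals mark the GC box GGGCGG, searched on both strands and found here as CCGCCC at 2 places.
Fgfr3: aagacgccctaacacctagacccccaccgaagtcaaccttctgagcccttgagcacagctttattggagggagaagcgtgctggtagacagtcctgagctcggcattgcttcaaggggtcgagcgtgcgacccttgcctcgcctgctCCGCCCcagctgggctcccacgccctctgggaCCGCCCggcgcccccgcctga
A GC box occurred in 32.7% of the 32851 upstream windows of 250 bases in that table, so its presence is common.

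Of the ligands, Fgf2, a broadly acting mitogen kept in the matrix of cartilage, was at 18.7 and 21.4 CPM in WT SSC, 28.5 and 38.1 in KO SSC, 26.7 and 18.5 in WT BCSP and 33.3 and 42.3 in KO BCSP. Every KO library was above every WT library, a separation not counted over all genes. Its gene (chr3:37348346-37410108, + strand, GRCm38) shares 640 exon bases, 9.44% of its own, with the antisense gene Nudt6. Whether counting used strand is unknown, but Nudt6 itself had 95 to 168 counts per library against 2451 to 5156 for Fgf2. Fgf18 was at 2.65 and 5.13 CPM in WT SSC, 3.71 and 6.25 in KO SSC, 3.45 and 5.71 in WT BCSP and 6.94 and 7.26 in KO BCSP, from 347 to 884 counts. The round 2 library was the higher one in each of the 4 groups.

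Of the feedback genes, Spry2 was at 90.5 and 135 CPM in WT SSC, 114 and 180 in KO SSC, 108 and 167 in WT BCSP and 141 and 196 in KO BCSP. Spry1 was at 2.30 and 3.96 CPM in WT SSC, 3.20 and 3.68 in KO SSC, 3.12 and 4.11 in WT BCSP and 3.81 and 5.07 in KO BCSP. Dusp6 was at 25.7 and 34.6 CPM in WT SSC, 32.6 and 44.2 in KO SSC, 43.2 and 52.4 in WT BCSP and 38.5 and 55.3 in KO BCSP. In all 3 genes the round 2 library exceeded the round 1 library of its group in 4 of 4 groups, and the ranges of the rounds over all groups overlapped. On the strand opposite Spry1, Gm42922 covers 24.4% of its exon bases and had 0 to 10 counts per library.

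Because these 3 genes stood higher in round 2 together, the 250 bases upstream of their starts are shown (RefSeq, GRCm38.p6), each read 5′ to 3′ on the gene's strand. Dusp6 lies at chr10:99262981-99263230 (+ strand), Spry1 at chr3:37639697-37639946 (+ strand) and Spry2 at chr14:105896820-105897069 (- strand). Capitals mark matches, on either strand, to the GC box GGGCGG or to CGGAAG. The letters CGGAAG are a form of the site bound by ETS factors such as those that ERK activates. Other and shorter forms of that site were neither searched nor marked.
Dusp6: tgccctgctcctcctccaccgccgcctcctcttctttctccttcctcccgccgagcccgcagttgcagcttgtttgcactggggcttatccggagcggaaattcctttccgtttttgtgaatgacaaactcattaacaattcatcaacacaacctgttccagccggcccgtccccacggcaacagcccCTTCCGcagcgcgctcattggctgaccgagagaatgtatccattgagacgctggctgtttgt
Spry1: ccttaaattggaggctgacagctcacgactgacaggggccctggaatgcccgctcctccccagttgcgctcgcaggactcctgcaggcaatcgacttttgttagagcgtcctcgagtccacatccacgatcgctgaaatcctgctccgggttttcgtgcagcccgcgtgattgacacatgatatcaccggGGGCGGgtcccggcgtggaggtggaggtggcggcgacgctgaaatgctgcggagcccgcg
Spry2: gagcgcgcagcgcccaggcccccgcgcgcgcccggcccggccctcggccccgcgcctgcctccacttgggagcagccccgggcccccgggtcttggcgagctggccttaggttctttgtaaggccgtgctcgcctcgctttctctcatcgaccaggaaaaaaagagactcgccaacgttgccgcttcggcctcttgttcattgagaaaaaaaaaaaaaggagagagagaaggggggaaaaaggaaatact
Dusp6 held 1 CGGAAG match, read as CTTCCG, 62 bases before its start, Spry1 held 1 GC box and Spry2 held neither. The letters CGGAAG occurred in 13.6% of all upstream windows of 250 bases and the cyclic AMP element TGACGTCA, absent from the windows of the 9 members with an entry, in 1.55%. The matches are a description of the letters, and no binding was measured here.

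Between KO and WT, none of the 10 genes passed edgeR's threshold. In SSC, 0 of 10 members were called by edgeR against 0.00451% of all genes tested (1 gene), and 0 by DESeq2 against 0.0406%, with 1 member at an unadjusted edgeR p under 0.05 against 1.2% of all genes (266). In BCSP edgeR likewise called 0 of 10 against 0.00451% and DESeq2 0 against 0.118%, with 1 member at an unadjusted edgeR p under 0.05 against 6.19% (1371 genes). Over both cell types together edgeR called 0 of 10 against 0.0135% (3 genes), with 1 member at an unadjusted p under 0.05 against 7.91% (1753 genes). DESeq2 called 1 member there, Fgf2, against 0.494% of the genes it gave an adjusted p (103 genes). The median log2 fold change of the members was 0.21 over both cell types, beside 0.02 over all genes tested.

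Fgf2 had the largest genotype difference of the members, 0.74 ± 0.17 on the log2 scale over both cell types (1.67-fold, 21.3 ± 3.83 CPM in WT and 35.6 ± 5.96 in KO, SD, n = 4 each), with an unadjusted p of 0.000669 and an edgeR adjusted p of 0.351. The difference was 0.73 ± 0.26 in SSC and 0.74 ± 0.26 in BCSP, and KO was higher in 4 of 4 comparisons within a round and cell type. Its adjusted p was 0.0275 with DESeq2, 0.00606 without the filter on low counts and 0.0408 with rounds as a block and a length offset, while the value stayed between 0.595 and 0.847 under all 15 alternatives, with adjusted p from 0.00606 to 0.957. Log2 fold changes of all genes ran with transcript length in this comparison (Spearman 0.365 over 12636 genes). With each library's length trend taken out, Fgf2 was 0.71 with an adjusted p of 0.164.

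Fgfr1 (0.21 ± 0.15), Fgfr2 (0.31 ± 0.15), Fgf18 (0.49 ± 0.27) and Spry2 (0.34 ± 0.21) were also above 0 in 4 of 4 within-round comparisons, with edgeR adjusted p of 0.706, 0.637, 0.648 and 0.673 over both cell types. Fgfr3 was below 0 in 4 of 4, at -0.22 ± 0.17 with an edgeR adjusted p of 0.717. Thus 5 of the 10 members were higher in KO in every comparison and 1 lower, where 10.6% and 9.95% of all genes tested were so. Fgfr2 and Fgfr1 have the longest exon length of the members (10.328 and 9.875 kb), Fgf18 and Spry2 the shortest (1.187 and 2.087 kb). The 15 alternatives, a length offset among them, put Fgfr1 at 0.11 to 0.25 and Fgfr2 at 0.20 to 0.39. Fgf18 ran from 0.33 to 0.75 and Spry2 from 0.19 to 0.55. The part of the length trend in these signs was not tested gene by gene. Beside these values, all 4 genes of the perichondrium and fibrous list (Postn, Col3a1, Scx, Tnmd) had higher means in KO, with a summed level of 1555 to 1868 CPM in WT SSC, 1806 to 2553 in KO SSC, 2193 to 2921 in WT BCSP and 2806 to 3388 in KO BCSP. Prg4, a superficial cartilage marker, also had a higher mean in KO, and 1 of 5 chondrocyte and 1 of 5 osteoblast genes did. The count was not particular to fibrous genes: 4 of 4 endothelial genes, with a sum of 0.300 to 2.27 CPM, were higher in KO. So were 3 of 4 skeletal muscle, 2 of 5 hypertrophic, 1 of 5 erythroid and 1 of 5 leukocyte genes. The part of these cells in the genotype values was not tested. Spry1 (0.22 ± 0.25) and Dusp6 (0.16 ± 0.18) were above 0 in 3 of 4. Fgfr4 (-0.17 ± 0.17) and Fgfrl1 (-0.13 ± 0.16) had no steady sign: both turned above 0 without the BCSP libraries of round 2 (0.064 and 0.013), and Fgfrl1 also with the length trend taken out (0.017).

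Whether the knockout acted differently in SSC and BCSP was tested as an interaction, which called 0 of 10 members against 0% of all genes, with 0 members at an unadjusted p under 0.05 against 1.27% of all genes (282) and 0 genes called by DESeq2 (0%). The interaction of the members ran from -0.27 (Fgf18) to 0.37 (Dusp6), each with an edgeR adjusted p of 0.9999. For Fgf2 it was -0.01 ± 0.36.

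**Figure D3:**
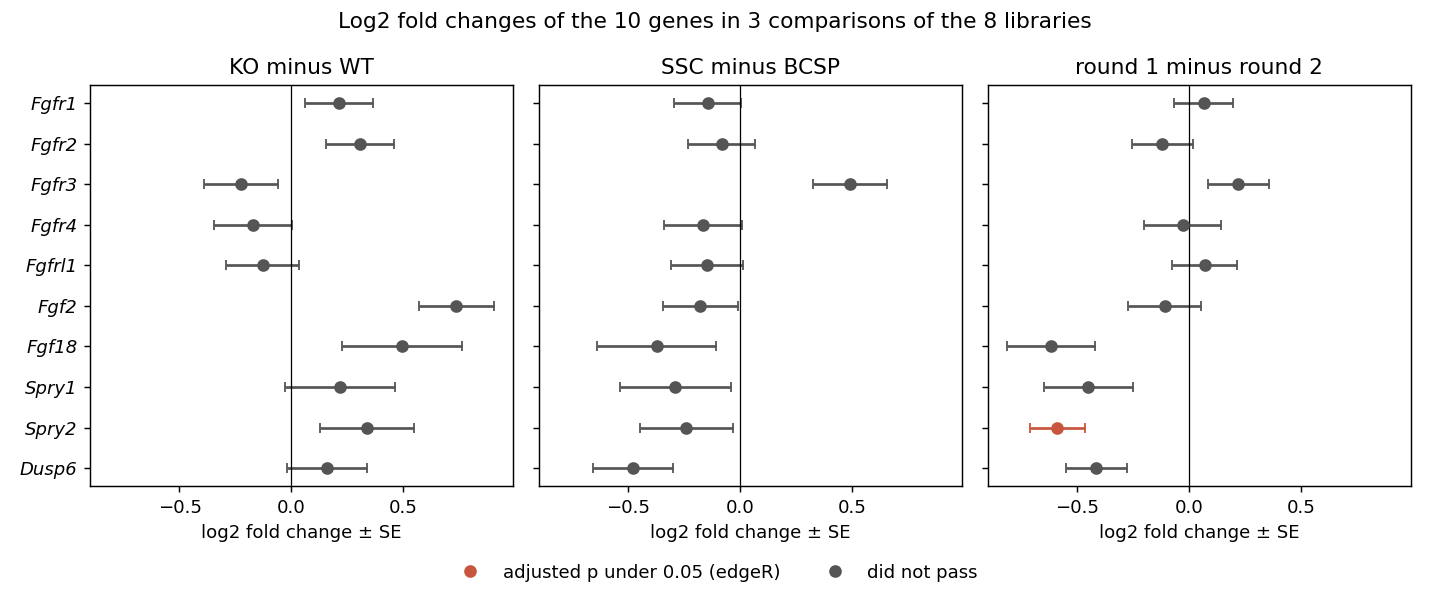
Log2 fold change with SE of the 10 genes (horizontal axis, log2 scale) in 3 panels, for KO minus WT over both cell types, SSC minus BCSP over both genotypes, and round 1 minus round 2. Fgf2 stands at 0.74 for genotype, Fgfr3 alone is above 0 for SSC against BCSP, and Spry2 at -0.59 is the one member called, in the comparison of rounds.

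Between the cell types, Fgfr3 was the member with more transcript in SSC, and 9 of 10 members had a log2 fold change below 0, against 10675 of all 22153 genes. Fgfr3 averaged 521 ± 83.9 CPM in SSC and 372 ± 43.6 in BCSP (SD, n = 4 each), a difference of 0.49 ± 0.17, higher in SSC in 4 of 4 comparisons within a genotype and round. Dusp6 averaged 34.3 CPM in SSC and 47.4 in BCSP, a difference of -0.48 ± 0.18, lower in SSC in 4 of 4. Their unadjusted p-values were 0.0108 and 0.0189, and both had an edgeR adjusted p of 1. Neither passed, and edgeR called 0 of 10 members against 0.00451% of all genes (1 gene), with 2 members at an unadjusted p under 0.05 against 3.71% (822 genes). DESeq2 called 0 members against 0.18% of genes (39).

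Fgfr1, Fgf18, Spry1 and Spry2 were lower in SSC, or equal to 3 decimals, in all 4 within-round comparisons. Their differences were -0.15 ± 0.15, -0.37 ± 0.27, -0.29 ± 0.25 and -0.24 ± 0.21. With Dusp6 these were 5 of the 10 members, counting Fgfr1 with its tie in KO of round 2. Of all genes tested, 6.62% were lower in SSC in 4 of 4, a share taken on unrounded values below 0. The hypertrophic chondrocyte list (Col10a1, Ihh, Mmp13, Ibsp, Spp1) stood beside the Fgfr3 values, with 4 of 5 genes at a higher mean in SSC and a summed level of 542 to 1053 CPM in WT SSC, 331 to 1223 in KO SSC, 335 to 613 in WT BCSP and 324 to 390 in KO BCSP. None of its genes was at 0 in any library. The count was not particular to that list: chondrocyte, osteoblast and erythroid genes also had 4 of 5 at a higher mean in SSC. Leukocyte genes had 5 of 5, skeletal muscle genes 3 of 4 and endothelial genes 1 of 4. The osteoblast sum went the other way, at 1738 to 2066 CPM in SSC and 2346 to 3027 in BCSP. WT SSC of round 1 had a leukocyte sum of 133.7 CPM and an erythroid sum of 36.0. The other SSC libraries had 1.135 to 5.32 and 2.42 to 4.69, and BCSP 0.662 to 23.4 and 3.80 to 15.4. None of the 4 perichondrium and fibrous genes had a higher mean in SSC, and their summed level was 1555 to 2553 CPM in SSC and 2193 to 3388 in BCSP. Prg4 was at 245 to 770 CPM in SSC and 531 to 988 in BCSP, and the part of these cells in the Fgfr3 and Dusp6 values was not tested. In bulk samples, fewer cells of a type and less RNA per cell cannot be told apart.

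Spry2, the feedback gene with the highest level, was lower in round 1, at 113 CPM against 170 CPM in round 2, a log2 fold change of -0.59 ± 0.12 with an edgeR adjusted p of 0.0269. It was the 1 member of 10 called, where 2.15% of all genes were called (476, of which 311 were lower and 165 higher in round 1), by DESeq2 5.41% (1128), and 13.3% had an unadjusted edgeR p under 0.05. The call was lost without either WT SSC library (adjusted p 0.150 and 0.112), either KO SSC library (0.124 and 0.207) or the KO BCSP library of round 1 (0.117), while the value stayed between -0.60 and -0.55.

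Dusp6 (-0.41 ± 0.13), Fgf18 (-0.62 ± 0.20) and Spry1 (-0.45 ± 0.20) were lower in round 1 in 4 of 4 groups too, as were 11% of all genes, but their edgeR adjusted p-values of 0.171, 0.164 and 0.352 did not pass. Without the WT BCSP library of round 2, 4 members were called: Spry2, Dusp6 (adjusted p 0.00189), Fgf18 (0.00853) and Fgfr3 (0.0428). In the same fit the calls among all genes went from 476 to 4072. Fgfr3 was 0.22 ± 0.14 higher in round 1 with all libraries, an edgeR adjusted p of 0.561, and the other 5 members lay between -0.12 and 0.07.

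**Figure D4:**
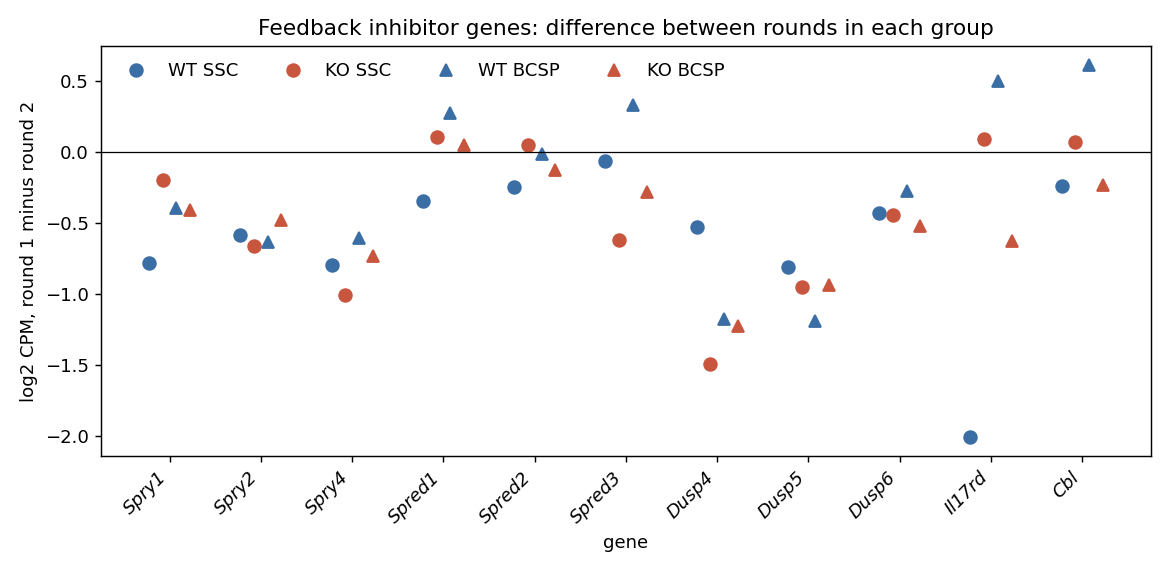
Difference in log2 CPM, round 1 minus round 2 (vertical axis), of Spry1, Spry2, Dusp6 and the 8 other feedback inhibitors tested, with 1 point for each of the 4 groups. All 4 points lie below 0 for Spry1, Spry2, Spry4, Dusp4, Dusp5 and Dusp6 and on both sides of 0 for the other genes.

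Of 8 other feedback inhibitors tested, edgeR called 3, against 2.15% of all genes, and all 3 were lower in round 1: Dusp5, a nuclear ERK phosphatase, at 69.8 against 137 CPM (-0.97 ± 0.13, adjusted p 0.00285 by edgeR), Spry4 at 27.3 against 47.1 (-0.79 ± 0.13, 0.00828) and Dusp4 at 2.31 against 5.02 (-1.09 ± 0.22, 0.0233). Dusp5 kept its call under all 13 alternatives, Spry4 under 11 and Dusp4 under 10. Spred1, Spred2, Spred3, Il17rd and Cbl did not pass. The call for Spry4 was lost without WT SSC of round 1 or KO SSC of round 2 (adjusted p 0.0539 and 0.0591), and that for Dusp4 without either KO SSC library or KO BCSP of round 1. The median of the 8 was -0.36, beside -0.01 over all genes.

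Among the immediate targets, Myc was lower in round 1 (247 against 359 CPM, -0.54 ± 0.13, edgeR adjusted p 0.0497), 1 of 7 in the list of target factors and cyclin D1. Its call was lost under 7 of 13 alternatives, among them each omission of an SSC library. The list went both ways: 3 of the 7 (Myc, Egr1, Fos) were lower in round 1 in 4 of 4 groups. Etv1 and Etv4, 2 of the 7, were higher in 4 of 4, and the list median was -0.001. Beside these values, all 5 hypertrophic genes had higher means in round 1, and so did all 5 osteoblast, all 5 erythroid and 4 of 5 leukocyte genes. The 4 perichondrium and fibrous genes and Prg4 had lower means in round 1, as the feedback genes called did. The summed level of the leukocyte list was 134 CPM in WT SSC of round 1 and 0.662 to 23.4 in the other 7 libraries, and the erythroid sum 36.0 against 2.42 to 15.4. Without that library Spry2 was -0.58 between rounds. The part of these cells in the round difference was not tested.

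Flrt1 and Flrt2, which encode FGFR-binding membrane proteins, went opposite ways, with Flrt1 lower (-0.97 ± 0.23, edgeR adjusted p 0.0461) and Flrt2 higher (0.71 ± 0.16, 0.0406) in round 1, 2 of 20 co-receptor and heparan sulfate genes. Pth1r, the receptor of parathyroid hormone-related protein in the growth plate, was higher in round 1 (280 against 172 CPM, 0.74 ± 0.17, 0.0412), 1 of 8 growth plate partners of FGFR3. Each of these 3 calls was lost under 6 of 13 alternatives, leaving out any SSC library among them. None of 13 other FGF family genes and none of 16 signal relay genes was called between rounds by edgeR. In each list 1 gene had an unadjusted edgeR p under 0.05, and DESeq2 called 1 FGF family gene and 0 relay genes.

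For the genotype and cell type comparisons no gene of the 6 pathway lists passed edgeR's threshold, and DESeq2 called 1, Spred3, over both cell types, among the 103 genes it called. At an unadjusted edgeR p under 0.05 in that comparison were 2 other feedback inhibitors and 2 co-receptor and heparan sulfate genes. So were 1 each of the other FGF family genes, target factors and growth plate partners, and 0 of the signal relay genes. Over both cell types the median genotype difference was 0.37 for the 8 other feedback inhibitors, all of them above 0. It was 0.44 for 13 other FGF family genes, 0.09 for 16 signal relay genes and 0.03 for 7 target factors. For 8 growth plate partners it was 0.03, and for 20 co-receptor and heparan sulfate genes 0.01. The FGF family median rests partly on genes near the floor, with values from -7.15 to 2.12. Fgf3, Fgf10, Fgf17 and Fgf23 had at most 38 counts in any library. Fgf21 and Fgf1, the highest of that list, were 0.13 ± 0.30 and 0.44 ± 0.24. Spred3, a RAS-pathway inhibitor of the Sprouty-related family, had the lowest p of these lists. It was at 2.08, 2.17, 2.06 and 1.63 CPM in WT and 3.62, 5.59, 4.21 and 5.11 in KO. These ranges did not overlap, a separation not counted over all genes. The difference was 1.23 ± 0.24, with an edgeR adjusted p of 0.192. The DESeq2 adjusted p was 0.000724. Spred3 was also called by the fit without a filter and that with rounds as a block and a length offset. Spred2 followed with 0.31 ± 0.13 (adjusted p 0.614).

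In the other lists, the 2 genes with the lowest p for genotype did not pass edgeR's threshold either. Gpc1, a heparan sulfate proteoglycan of the cell surface, was -0.51 ± 0.16 (266 CPM in WT, 187 in KO, adjusted p 0.608), and Ext2, a heparan sulfate polymerase, -0.41 ± 0.18. The signal relay genes Stat3 and Grb2 were 0.35 ± 0.18 and -0.28 ± 0.15. Etv4, an ETS factor induced by FGF signalling, was 0.61 ± 0.24 and Ccnd1, cyclin D1, -0.45 ± 0.21. Npr2, the receptor of C-type natriuretic peptide, was 0.37 ± 0.15 and Pth1r -0.38 ± 0.27. Fgf14 was 1.30 ± 0.68 at 0.248 CPM in WT and 0.469 in KO.

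Fgf3 had 38, 6, 26 and 0 counts in the WT libraries and 0 in the 4 KO libraries, and its edgeR adjusted p was 0.613. Of the other FGF family genes, Fgf21 (8.39 ± 2.26 TPM, SD, n = 8) and Fgf1 (2.47 ± 0.737) had the highest levels per length, below Fgf2 and Fgf18. Fgf4, Fgf5, Fgf6, Fgf8, Fgf15, Fgf16, Fgf20 and Spry3 were too low to be tested.

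The genes whose profile over the 8 libraries was most like that of a member were sought among 7658 genes of at least 10 CPM, by Pearson correlation of log2 CPM. Fgfr3 was most like Slc35d1 (0.967), a nucleotide-sugar transporter needed for chondroitin sulfate, followed by Rras2 (0.965), Tmem63b (0.96), Runx3 (0.958) and Lbh (0.955). Fgfr1 was most like Mtmr10 and Smad3 (0.973 each), then Erg (0.96), Clcf1 (0.948) and Foxn3 (0.941). Dusp6 was most like Thbs4 (0.97), then Tnc and Trib2 (0.964 each), Nsmaf and Hs6st2 (0.958 each). Among the members, Fgf18 and Spry2 correlated at 0.924, Spry1 and Spry2 at 0.902, Fgfr4 and Fgfrl1 at 0.926, and Fgfr3 and Dusp6 at -0.867. These 8 points share their groups, rounds and depth, and the values are a description.

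Fgfr1, Fgfr2 and Fgfr3 share exon bases with neighbouring genes in the annotation used. An antisense entry, G630022F23Rik, covers 13.9% of the exon bases of Fgfr3 (chr5:33721674-33737068, + strand) and had 159 to 522 counts, against 38214 to 77726 for Fgfr3. Fgfr1 (chr8:25513654-25575718, + strand) shares 1.66% with the antisense Gm16159, and Fgfr2 (chr7:130162451-133123350, - strand) 3.04% with Ctbp2 on its own strand. Shared reads may sit with either gene. Spry2 (chr14:105891947-105896819, - strand), Dusp6 (chr10:99263231-99267489, + strand), Fgf18 (chr11:33117430-33147400, - strand), Fgfr4 (chr13:55152640-55168759, + strand) and Fgfrl1 (chr5:108692382-108706924, + strand) shared no exon base with another gene.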

How the data were processed

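The deposited table holds raw counts per gene for the 8 libraries. Per the submitters' processing notes, the authors used STAR, featureCounts and DESeq2 with the build mm10. No versions are given, htseq appears in the table's name, and the annotation release and strand of counting are not given in the sources used here. Column names SCC and BCP were read as SSC and BCSP.

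Counts were tested with edgeR 4.0.16 (R 4.3.3, limma 3.58.1, and the data.table package at 1.17.8), with TMM factors of 0.854 to 1.06 and filterByExpr (minimum count 10, total 15), which left 22153 genes. Genotype within a cell type and the interaction came from a model with 1 mean per group, the effects over both from an additive model, and rounds from that model with round added. Residual degrees of freedom were 4, 5 and 4, and the common biological variation 0.525. The additive models treat SSC and BCSP libraries as independent. TPM used GENCODE M21 exon lengths (55230 entries matched), and log2 CPM a prior count of 2. Python 3.11.15, pandas 2.3.3 and matplotlib 3.10.9 were used for promoters and plots. The fit was tested on simulated data. RefSeq promoters matched 9 of 10 members.

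All 10 members are named, with the 2 genes of lowest genotype p in each of 6 pathway lists, any that passed, and 5 genes most alike in profile to Fgfr1, Fgfr3 and Dusp6. Members, lists and tests were chosen with earlier results of these data known. Alternatives were RLE scaling, DESeq2 1.42.0, no filter, only the 4 libraries compared, a replicate block, a length offset, and libraries left out.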

Additional observations from a re-analysis of the deposited data

How the results depend on the processing

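No member was called in SSC, in BCSP, for the interaction or between cell types under any alternative run. Over both cell types 1 member (Fgf2) was called with DESeq2, without the filter, and with the replicate block and a length offset. Between rounds 3 members were called with both BCSP libraries of round 2 left out, and 0 to 4 with single libraries left out.

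Counts of all genes called moved more. In SSC 1 gene became 9 with DESeq2, 4 without the filter, 0 with only the 4 libraries compared and 1 to 4 with single libraries left out. In BCSP 1 became 20 with DESeq2, 38 without the filter and 1 to 2 with single libraries left out. Over both cell types 3 became 103 with DESeq2, 234 without the filter, 1 with a length offset, 11 without both BCSP libraries of round 2 and 1 to 12 with single libraries left out. Between cell types 1 became 39, 66, 1 and 36 under those 4 settings and 1 to 3 with single libraries left out. Between rounds 476 became 1128, 1062, 862 and 1932, and 208 to 4072 with single libraries left out.

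Round numbers were also used as a replicate block. Deviations of same-numbered libraries correlated at 0.559, 0.273, 0.615, 0.645, 0.162 and 0.059 over the 6 pairs of groups. The pairs with WT BCSP gave the lowest values, 0.273 (WT SSC), 0.162 (KO SSC) and 0.059 (KO BCSP). As 1 value, 0.059, was not over 0.1, the number was not taken as a pairing. The replicate block called 2 genes in SSC, 3 in BCSP, 2 for the interaction, 28 over both cell types and 2 between cell types, and 0 members in each. With a length offset added it called 3, 8, 1, 103 and 45 genes. Fgf2 had an adjusted p of 0.149 with the block alone.

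The sign of 34 values of members turned under an alternative, none of them a call. In SSC, Fgfr4 was 0.029 and Fgfrl1 0.0061 with a length offset, and 0.029 and 0.0063 with the block added. With single libraries left out, Fgfr4 ran from -0.043 to 0.040, Fgfrl1 from -0.11 to 0.021, Fgf18 from -0.086 to 0.91, Spry1 from -0.20 to 0.58, Fgfr3 from -0.46 to 0.023 and Spry2 from -0.0022 to 0.71 there. In BCSP, Dusp6 was 0.011 with RLE scaling or DESeq2, 0.21 with a length offset and 0.15 with the block too, and Fgfrl1 was 0.028 and 0.027 under the latter pair. Leaving out single libraries put Dusp6 at -0.27 to 0.23 and Fgfrl1 at -0.39 to 0.0043 in BCSP. Without both BCSP libraries of round 2, Fgfr4 was 0.20 and Fgfrl1 0.14 in BCSP, 0.064 and 0.013 over both cell types, Spry2 was 0.068 between cell types and Fgfr1 -0.078 between rounds. Over both cell types Fgfrl1 was 0.017 with a length offset, with the block or without. Single libraries left out put Fgfr2 at -0.16 to 0.0071 between cell types, and Fgfr4 at -0.18 to 0.15 and Fgfrl1 at -0.0033 to 0.19 between rounds. The cause was not tested.

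With 2 libraries a group, differences about the size of the SE given could not be seen whatever the depth. The depth was at least 104782544 counts in each library. Larger differences could fall short too: Fgf2 over both cell types, at 0.74 ± 0.17, had an edgeR adjusted p of 0.351. Fgf18 and Spry1, at 301 to 884 counts, are the members most limited by counting.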

Other observations

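Between SSC and BCSP, edgeR called 0 of 20 co-receptor and heparan sulfate genes, 10 of them above and 10 below 0 with a median log2 fold change of -0.01, and 0 of 7 target factors. Sulf2, a sulfatase that trims heparan sulfate outside the cell, averaged 106 CPM in SSC and 163 in BCSP (-0.62 ± 0.16 on the log2 scale, edgeR adjusted p 0.797) and was lower in SSC in 4 of 4 comparisons within a genotype and round. Gpc1 averaged 266 CPM in SSC and 186 in BCSP (0.51 ± 0.16, adjusted p 1) and was higher in SSC in 4 of 4. Etv4 averaged 9.28 CPM in SSC and 16.4 in BCSP (-0.87 ± 0.24, adjusted p 0.884), lower in SSC in 4 of 4. Of all genes tested, 7.71% were higher and 6.62% lower in SSC in 4 of 4. Sulf2, Gpc1 and Etv4 were picked here for their low p-values, after these were seen, so the values are a description. Sulf2 passed in 1 of 15 alternatives and Etv4 in 3.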
